A study of Mus musculus with 50 samples.

Results

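Peaks of open chromatin that lie in the most gene-dense parts of the mouse autosomes are described here across 5 rearing facilities (RFs) and 2 time points (TPs). The autosomes of GRCm38 were divided into bins of 1 Mb, and a bin was taken as gene-rich if it held at least 20 starts of protein-coding genes and at least 20 peaks. These criteria use annotation and peak positions alone, with no measured level. They gave 234 bins with 21417 peaks, which is 15.1% of the 142149 autosomal peaks and a part of the 144465 peaks counted in all. The bins held 7172 of the 20661 autosomal protein-coding gene starts (34.7%). The study used ATAC-seq, which reads accessible chromatin from the sites where Tn5 transposase cuts DNA that nucleosomes leave free, on NeuN+ nuclei (NeuN marks neurons) sorted from the ventral hippocampus of one hemisphere. Pregnant C57BL/6JRj females of a single breeding colony (Janvier Labs) had been sent to the RFs, where their offspring were born and kept. Each of the 50 libraries came from 1 male, with 5 males per RF at either TP. Males of TP1 were 8 weeks old and were killed in their RF, and those of TP2, labelled as 14 weeks old, were littermates that had been moved to a common test laboratory and not used in behavioural tests. All samples carry the same treatment label (hexane, freezing condition) and the same genotype. Each sorting batch of nuclei took 1 sample per RF, whereas the libraries of a TP were sequenced together, so TP and sequencing batch cannot be told apart.

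Mammalian genes are clustered, and gene-dense regions usually replicate early, have a high GC content, carry many CpG islands and occupy the interior of the nucleus, whereas gene-poor regions lie more often at the nuclear or nucleolar border. Their peaks include many promoters, where nucleosomes are depleted around the transcription start site, and many nearby enhancers. Several of the densest regions are clusters of related genes, such as those of histones, kallikreins, MHC proteins, keratins, protocadherins and olfactory receptors, some of which are expressed in neurons and others of which are silent in brain.

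The promoters of 6 genes in such bins recur in the results, and their sequences from RefSeq (GRCm38.p6, 300 bases that span the start, 5′ to 3′ on the strand of the gene) show what was open. Slc17a7 encodes the vesicular glutamate transporter of hippocampal principal neurons, Per1 a clock gene that is also induced by neuronal activity, Aldoc an aldolase typical of astrocytes, Klk8 (neuropsin) a secreted serine protease of the hippocampus, and H2ac8 and H3c11 histone H2A and H3 proteins made in S phase. Capitals mark GGGCGG, the core of the GC box, in Slc17a7, Aldoc and Klk8, CACGTG, the E-box core that clock proteins can bind, in Per1, and CCAAT, the box common in histone promoters, in H2ac8 and H3c11, each searched on both strands.
Slc17a7, chr7:45163671-45163970, + strand: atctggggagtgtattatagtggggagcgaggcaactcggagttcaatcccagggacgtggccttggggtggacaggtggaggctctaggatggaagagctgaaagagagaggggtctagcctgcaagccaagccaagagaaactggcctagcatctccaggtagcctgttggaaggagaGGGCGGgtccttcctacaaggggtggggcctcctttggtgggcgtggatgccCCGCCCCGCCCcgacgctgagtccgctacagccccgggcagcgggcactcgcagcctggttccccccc
Per1, chr11:69098699-69098998, + strand: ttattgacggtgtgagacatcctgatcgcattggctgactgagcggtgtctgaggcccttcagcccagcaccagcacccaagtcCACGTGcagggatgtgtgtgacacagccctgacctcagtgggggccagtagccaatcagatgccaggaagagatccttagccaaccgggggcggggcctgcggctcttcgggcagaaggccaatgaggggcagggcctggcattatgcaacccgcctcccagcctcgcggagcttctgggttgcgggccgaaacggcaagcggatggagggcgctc
Aldoc, chr11:78322823-78323122, + strand: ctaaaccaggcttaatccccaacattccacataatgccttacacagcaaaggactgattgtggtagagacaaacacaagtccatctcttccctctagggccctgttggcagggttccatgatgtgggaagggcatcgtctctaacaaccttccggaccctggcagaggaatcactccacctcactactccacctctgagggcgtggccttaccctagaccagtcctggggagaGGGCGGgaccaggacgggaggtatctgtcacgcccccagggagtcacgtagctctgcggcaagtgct
Klk8, chr7:43797327-43797626, + strand: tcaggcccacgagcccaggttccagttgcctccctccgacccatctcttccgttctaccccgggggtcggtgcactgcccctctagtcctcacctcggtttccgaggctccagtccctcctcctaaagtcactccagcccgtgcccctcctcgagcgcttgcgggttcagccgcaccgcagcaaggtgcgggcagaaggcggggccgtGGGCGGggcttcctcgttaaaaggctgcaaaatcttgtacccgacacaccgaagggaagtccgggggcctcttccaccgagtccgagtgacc
H2ac8, chr13:23571171-23571470, - strand: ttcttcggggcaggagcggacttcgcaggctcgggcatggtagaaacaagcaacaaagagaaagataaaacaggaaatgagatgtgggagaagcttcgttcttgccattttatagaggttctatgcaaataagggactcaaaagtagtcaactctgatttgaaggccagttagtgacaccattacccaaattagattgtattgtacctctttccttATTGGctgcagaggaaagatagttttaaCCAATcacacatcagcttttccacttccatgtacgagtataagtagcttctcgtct
H3c11, chr13:21783348-21783647, - strand: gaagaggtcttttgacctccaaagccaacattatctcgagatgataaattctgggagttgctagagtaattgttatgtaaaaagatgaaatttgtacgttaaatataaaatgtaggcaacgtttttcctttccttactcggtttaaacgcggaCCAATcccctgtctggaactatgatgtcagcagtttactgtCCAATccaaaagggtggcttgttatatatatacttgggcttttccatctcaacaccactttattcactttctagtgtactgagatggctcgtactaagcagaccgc

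All 300 bases lay inside a peak for Slc17a7, Aldoc, Klk8, H2ac8 and H3c11, and 291 bases did for Per1. GC content was 63.7% in Slc17a7, 63.3% in Per1, 65.3% in Klk8 and 56.3% in Aldoc. In the histone promoters it was only 42.0% (H2ac8) and 39.3% (H3c11). Slc17a7 held 3 GC boxes, of which the last pair lay on the minus strand and overlapped by 1 base, while both histone promoters held 2 CCAAT boxes. A match of these letters is a description and not a binding site.

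Total counts in peaks ran from 33663505 to 77396321 per library at TP1 and from 5111223 to 36401717 at TP2, where replicate 3 of RF1 and of RF2 were the shallowest. Within a group, RF1 varied most at TP1, and at TP2 replicate 5 of RF1 and of RF2 lay away from the rest of their groups in many measures given below. The TP2 titles of replicate 5 of RF1 and RF2 and replicates 1 and 5 of RF5 break the numbering used at TP1. Groups were used as labelled, and what these title numbers mark was not tested. The sort was checked against markers at gene starts: 18 of 20 neuron genes had a peak there, with a median level of 10.7 CPM/kb (counts scaled to library size, as CPM, per kilobase of peak), against 2.18 for 8 of 15 oligodendrocyte genes, 3.22 for 11 of 11 astrocyte genes, 3.28 for 8 of 14 microglia genes and 2.45 for 7 of 12 vascular genes. Summed over a list, the libraries ranged from 174 to 264 CPM/kb for neuron genes, 21.3 to 36.1 for oligodendrocyte genes, 32.7 to 52.5 for astrocyte genes, 25.9 to 39.9 for microglia genes and 16.6 to 24.4 for vascular genes. In such bulk libraries, a smaller number of nuclei of a type and lower accessibility per nucleus cannot be told apart.

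Peaks of gene-rich bins were wider, stronger and closer to genes than other autosomal peaks. The 234 bins held 20 to 66 gene starts (median 27) and 21 to 153 peaks (median 96, against 64 over the 2015 autosomal bins with at least 20 peaks). Chromosome 11 had 30 of them, chromosome 7 had 26 and chromosome 2 had 23. Their peaks covered 37.6 Mb, with a median width of 1659 bp against 1483 bp for the other autosomal peaks, and a median level of 3.56 against 2.63 CPM/kb. Within 2 kb of a protein-coding gene start lay 5434 of them (25.4%), compared with 8.18% of the other autosomal peaks. The level at starts was 8.97 CPM/kb, and 3.08 away from starts (7.40 and 2.55 for the other peaks). Peaks away from starts were a median of 14367 bp from the nearest start, compared with 61465 bp elsewhere. Peaks found in all 10 groups made up 47.3% of those in gene-rich bins and 36.3% of the others. A further 39 bins had enough gene starts but too few peaks. At the limit of the criterion, the 19 bins with 20 gene starts had a median range over the 5 RF levels of 0.30 (log2) at TP1 and 0.30 at TP2, and the 29 bins with 19 starts had 0.27 and 0.25.

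The share of autosomal counts that fell in gene-rich bins differed between RFs, and the order of the RFs was not the same at both TPs. At TP1, replicates 1 to 5 of RF3 had shares of 25.8%, 26.4%, 26.7%, 26.7% and 26.6%. Those of RF5 had 25.3%, 26.4%, 26.7%, 26.7% and 26.2%. RF3 and RF5 were thus the highest RFs at TP1 and overlapped each other. Replicates of RF2 had 24.6%, 25.5%, 24.3%, 24.2% and 24.2%, and those of RF4 had 24.1%, 24.9%, 25.1%, 23.4% and 25.0%. In RF1 the shares were 20.96%, 24.4%, 25.7%, 22.7% and 20.04%. RF1 had the lowest median but spanned the widest range, and its replicate 3 reached into RF5. At TP2, RF3 was the lowest RF, with 20.1%, 20.01%, 20.03%, 20.8% and 20.6% in replicates 1 to 5. RF5 followed with 21.3%, 21.4%, 21.8%, 21.4% and 21.7%. Every library of RF3 at TP2 was below every library of any other RF, and every library of RF3 at TP1 was above every library of RF1, RF2 and RF4. RF4 had 23.9%, 24.3%, 24.2%, 24.3% and 24.3%, and RF2 had 23.7%, 23.6%, 23.8%, 23.6% and 21.7%. In RF1 at TP2 the values were 25.0%, 25.2%, 23.7%, 24.6% and 21.8%. Replicate 5 of RF1 and of RF2 had shares in the range of RF5, whereas the other libraries of both RFs were above it. Group medians from RF1 to RF5 were 22.7%, 24.3%, 26.6%, 24.9% and 26.4% at TP1, and 24.6%, 23.6%, 20.1%, 24.3% and 21.4% at TP2. Of the 10 pairs of RFs, 4 at TP1 and 6 at TP2 did not overlap in this share.

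**Figure D1:**
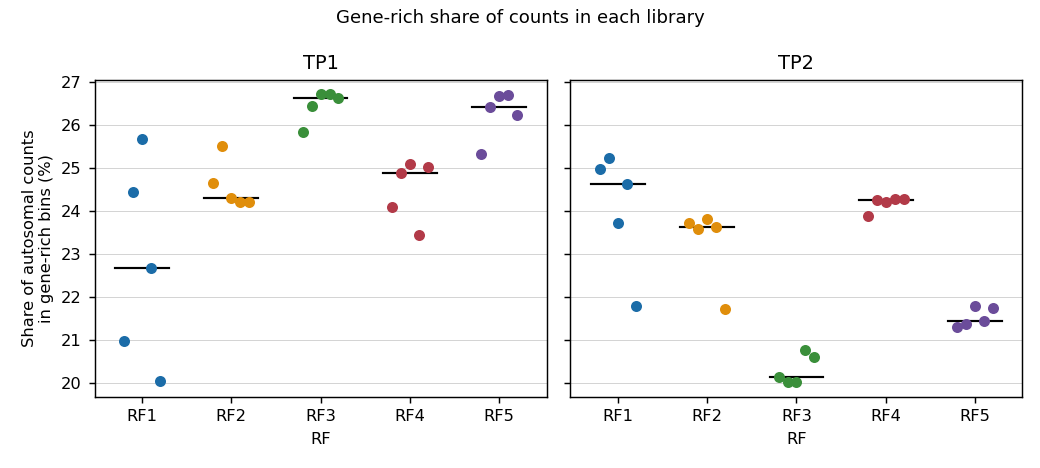
Share of autosomal counts in gene-rich bins in percent (y axis) for each library, by RF (x axis) in separate panels for TP1 and TP2. Points are libraries and lines are group medians, which are highest in RF3 at TP1 (26.6%) and lowest in RF3 at TP2 (20.1%).

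The share of called peaks gave a like picture. The peaks that the authors called in each library alone lay in gene-rich bins in a share with medians of 14.8%, 16.2%, 18.2%, 17.8% and 18.1% from RF1 to RF5 at TP1. At TP2 the medians were 17.1%, 16.05%, 14.5%, 17.5% and 14.7%. The RFs had the same order as by counts at TP1, and at TP2 only RF1 and RF4 changed places. Of the pairs of RFs, 6 at TP1 and 5 at TP2 did not overlap. This share rests on positions called per library and not on the merged peaks or on count normalization.

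Accessibility of peaks in gene-rich bins depended on RF more often than that of peaks in general. At TP1, 16192 of the 21416 tested peaks (75.6%) depended on RF (edgeR quasi-likelihood F-test, FDR below 0.01), while 59.1% of all peaks did. At TP2, 10812 of 21415 (50.5%) did, and 30.8% of all peaks. Peaks of gene-rich bins also had more counts, with a median log2 CPM of 2.64 at TP1 and 2.58 at TP2. Over all peaks it was 1.96 and 2.06. Peaks with more counts pass a fixed FDR more easily, and these shares were not compared at equal counts. In gene-poor bins, with at most 2 gene starts, 54.2% depended on RF at TP1 and 29.3% at TP2. Peaks at gene starts stood out with 89.3% and 76.1%, compared with 71.0% and 41.8% for those away from starts. Peaks at starts throughout the genome had 86.3% and 65.0%, and peaks away had 55.9% and 26.8%, so that the difference between gene-rich bins and the whole was larger away from starts. A peak was called a differentially accessible region (DAR) between RFs when the FDR was below 0.01 and the log2 fold change was 0.5 or more in either direction, and 9146 peaks were DARs between at least 1 pair of RFs at TP1 (42.7%, against 38.6% of all peaks). At TP2 there were 6659 (31.1%, against 21%). The effect of RF differed between TPs (interaction of RF and TP) for 15619 of 21415 peaks, or 72.9%, with 54.4% over all peaks. Peaks that depended on RF at both TPs numbered 9879, and a further 6313 did at TP1 alone and 933 at TP2 alone.

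At TP1, the median peak of gene-rich bins was less open in RF1 than in each other RF, relative to all peaks. Between RF1 and RF3, 234 were DARs higher in RF1 and 5509 were higher in RF3 (10.6% and 9.5% of all peaks were called in these directions). For RF1 over RF3, the log2 fold change had a median of -0.32 in gene-rich bins and 0.26 in gene-poor bins, and 86.2% of the former were negative. With TMM scaling, the median over all autosomal peaks was 0.00070 for this pair. Levels here and below are thus relative, and a shift of gene-rich bins tends to bring an opposite sign elsewhere. The sign in gene-poor bins is therefore no separate result. Against RF5, 272 DARs were higher in RF1 and 4783 in RF5 (all peaks, 12.9% and 9.52%), with medians of -0.29 in gene-rich and 0.24 in gene-poor bins. Against RF4, the DARs were 610 and 3999 (all peaks, 11.4% and 8.69%), with medians of -0.22 and 0.16. Against RF2, they were 71 and 764 (all peaks, 2.74% and 1.54%), with medians of -0.16 and 0.13. In these 4 comparisons, which share the libraries of RF1, the DARs of gene-rich bins were mostly lower in RF1 although among all peaks more were higher in RF1. The count of 764 fell to 442 without replicate 5 and was 1682 without replicate 3. With total counts alone in place of TMM factors, DARs higher and lower in RF1 numbered 298 and 6980 against RF4 and 33 and 1390 against RF2. Against RF3 they were 223 and 5886, and against RF5 239 and 5442.

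Relative to all peaks, those of gene-rich bins were most open in RF3 and RF5 at TP1. RF2 had 53 DARs higher and 635 lower than RF3 (all peaks, 0.944% and 1.22%), with a median of -0.16. The 635 were 347 without replicate 4. RF2 had 103 higher and 910 lower than RF5 (all peaks, 3.28% and 2.72%), with a median of -0.13. Between RF3 and RF4, 625 were higher in RF3 and 19 in RF4 (all peaks, 1.61% and 0.343%), with a median of 0.11. Between RF4 and RF5, 102 were higher in RF4 and 833 in RF5 (all peaks, 1.65% and 2.7%), with a median of -0.085. These last comparisons depended on the scaling: with total counts alone in place of TMM factors, which moved the median of all peaks by -0.14 for RF1 over RF4, by -0.12 for RF3 over RF4 and by 0.11 for RF4 over RF5, the DARs were 260 and 121 for RF3 and RF4 and 381 and 330 for RF4 and RF5. The medians of the gene-rich peaks then changed sign, to -0.012 for RF3 over RF4 and 0.023 for RF4 over RF5, beside -0.14 and 0.13 over all peaks. RF2 and RF4 had 200 and 361 DARs (all peaks, 1.7% and 1.08%) and a median of -0.041, with 119 and 798 under total counts. RF3 and RF5 differed least in direction, with 402 and 298 DARs (all peaks, 2.06% and 1.94%) and a median of 0.028.

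At TP2, the lowest RF in gene-rich bins was RF3, followed by RF5. Between RF1 and RF3, 3483 DARs were higher in RF1 and 102 in RF3 (all peaks, 4.54% and 5.59%), and the log2 fold change had a median of 0.31 in gene-rich and -0.23 in gene-poor bins. Between RF3 and RF4, 139 were higher in RF3 and 3413 in RF4 (all peaks, 6.62% and 4.48%), with medians of -0.32 and 0.24. Between RF2 and RF3, 1075 were higher in RF2 and 23 in RF3 (all peaks, 1.31% and 1.25%), with medians of 0.21 and -0.13. RF3 thus had few peaks in gene-rich bins that were more open than in RF1, RF2 or RF4, although among all peaks more were called higher in RF3 than in RF1 or RF4. RF5 was lower than RF1, with 1917 and 55 DARs (all peaks, 3.34% and 2.44%) and a median of 0.23. It was also lower than RF4, with 1971 and 93 (all peaks, 2.83% and 2.45%) and a median of 0.25 for RF4 over RF5, and lower than RF2, with 285 and 6 (all peaks, 0.544% and 0.114%) and a median of 0.14. The spread between replicates set these counts in part: without replicate 5 of every RF, 5908 were higher in RF1 than in RF3, 4114 in RF1 than in RF5, 2108 in RF2 than in RF3 and 1076 in RF2 than in RF5. Other replicates lowered them, to 1819 for RF1 over RF3 (without replicate 2), 636 for RF1 over RF5 (without replicate 1), 40 for RF2 over RF5 (without replicate 4) and 1266 for RF4 over RF5 (without replicate 4). With libraries within sampling noise summed, edgeR called 400 for RF2 over RF3, 678 for RF4 over RF5 and 0 for RF2 over RF5, where 693 had an unadjusted p under 0.05 and DESeq2 on all libraries called 282. The scaling mattered as well: total counts alone gave 1500 and 195 for RF1 and RF3, 432 and 50 for RF2 and RF3, and 201 and 2079 for RF3 and RF4. They gave 1548 for RF1 over RF5, 257 for RF2 over RF5 and 1984 for RF4 over RF5. An offset that depends on abundance gave 2525 for RF1 over RF3, 540 for RF2 over RF3 and 2832 for RF4 over RF3.

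Some pairs had few DARs in gene-rich bins at TP2, and these counts moved with single replicates. RF1 and RF4 had 19 and 7 DARs (all peaks, 0.229% and 0.0762%), with a median of 0.0020 and 49.5% of peaks negative. They had 237 and 37 without replicate 5, and 475 and 95 without replicates 3 and 5 of RF1 and RF2. Without replicate 4, edgeR called 0 and 0, with 141 and 222 peaks of that fold at an unadjusted p under 0.05, and with libraries within sampling noise summed it called 0 and 0, with 191 and 193. DESeq2 on all libraries called 16 and 8. RF3 and RF5 had 11 and 8 (all peaks, 0.243% and 0.0201%), with a median of -0.066. RF1 and RF2 had 189 and 40 (all peaks, 0.593% and 0.838%) and a median of 0.085, and the 189 became 729 without replicate 5. Without replicate 2, edgeR called 0 higher in RF1 (454 at an unadjusted p under 0.05), and without replicate 4 it called 0 in either direction (585 and 194). With libraries within noise summed it also called 0 and 0 (734 and 177), and DESeq2 on all libraries called 209 and 39. RF2 and RF4 had 69 and 85 (all peaks, 0.72% and 0.237%) and a median of -0.095. With libraries within noise summed, edgeR called 2 and 0 of these (500 higher in RF4 at an unadjusted p under 0.05, and 109 by DESeq2 on all libraries). With total counts alone, the DARs were 16 and 13 for RF1 and RF4 and 19 and 1 for RF3 and RF5.

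For several pairs of RFs, the difference followed gene density in steps over all autosomal bins. At TP1, RF1 over RF3 had a median log2 fold change of 0.26 in bins with at most 2 gene starts, 0.15 with 3 to 5, 0.057 with 6 to 9, -0.16 with 10 to 19 and -0.32 in the gene-rich bins. At TP2, the same classes had -0.23, -0.12, -0.044, 0.12 and 0.31. For RF3 over RF4 at TP2 they had 0.24, 0.13, 0.047, -0.13 and -0.32. In each of these comparisons the medians were ordered by class, and the order at TP2 for RF1 over RF3 was the reverse of that at TP1. Not every pair had such an order: for RF1 over RF4 at TP2, the class medians lay from -0.0024 to 0.0044 without steps. In 4 classes of peaks by mean count, from the weakest to the strongest, the peaks of gene-rich bins had medians of -0.40, -0.38, -0.38 and -0.26 for RF1 over RF3 at TP1, compared with 0.15, 0.062, 0.023 and 0.039 for the other peaks of the same class. Other pairs varied with abundance. RF3 over RF4 at TP1 had 0.018, 0.0093, 0.042 and 0.22 in gene-rich bins, and -0.077, -0.082, -0.047 and 0.10 for the other peaks. RF3 over RF5 at TP2 had 0.044, 0.0081, -0.017 and -0.16, and 0.076, 0.066, 0.032 and -0.071 for the other peaks.

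**Figure D2:**
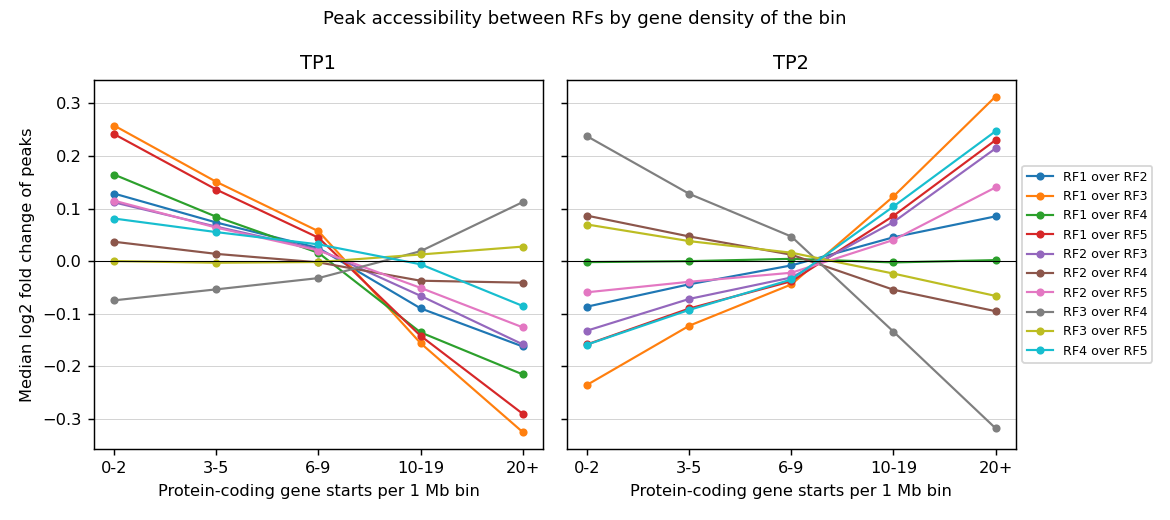
Median log2 fold change of peaks (y axis) by the number of protein-coding gene starts in the 1 Mb bin (x axis), for pairs of RFs at TP1 and TP2. The class with 20 or more gene starts holds the gene-rich bins, with RF1 over RF3 at -0.32 at TP1 and 0.31 at TP2.

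Peaks at gene starts and peaks away from them did not always move together inside gene-rich bins. At TP1, RF4 was low at the 5433 tested peaks at starts: RF1 over RF4 had a median of 0.043 at starts and -0.28 away, RF3 over RF4 had 0.28 and 0.062, and RF4 over RF5 had -0.26 and -0.032. Autosomal peaks outside gene-rich bins were split likewise, with medians at starts and away of 0.33 and 0.0066 for RF1 over RF4, 0.24 and -0.046 for RF3 over RF4, and -0.27 and 0.056 for RF4 over RF5. Of 228 bins with at least 5 peaks at starts, the median at starts was above that away in 223 for RF1 over RF4, in 223 for RF2 over RF4 and in 224 for RF3 over RF4, and below it in 224 for RF4 over RF5. These comparisons share the libraries of RF4. Among the 5433 peaks at starts in gene-rich bins, 276 were DARs higher in RF3 than in RF4 (5.08%, against 4.59% of all 15308 tested peaks at starts) and 1 was higher in RF4 (all starts, 0.0392%). Between RF4 and RF5, 5 were higher in RF4 and 349 in RF5 (all starts, 0.229% and 7.82%). Between RF1 and RF4, 347 were higher in RF1 and 493 in RF4 (all starts, 24.1% and 5.24%). The share of gene-rich counts that lay at starts was also lowest in RF4, with 50.1% to 50.4% in its libraries. It was 52.8% to 54.9% in RF2, 52.8% to 54.1% in RF3, 52.9% to 54.8% in RF5 and 54.3% to 56.9% in RF1. This share does not rank the levels at starts. RF1 had the highest median share, although RF1 over RF3 had a median of -0.24 at starts and -0.35 away. No library of RF4 reached another RF in this share. At TP2, RF3 took that place, with 50.2% to 50.5%, followed by RF4 with 50.8% to 51.2%, RF1 with 50.9% to 53.3%, RF2 with 52.1% to 53.6% and RF5 with 52.9% to 53.4%. RF3 over RF5 had a median of -0.20 at starts and -0.027 away at TP2, and the median at starts was the lower in 226 of 228 bins. RF1 over RF3 had 0.38 and 0.28 at TP2, with 1349 DARs at starts higher in RF1 and 9 higher in RF3 (all starts, 12.5% and 0.738%).

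**Figure D3:**
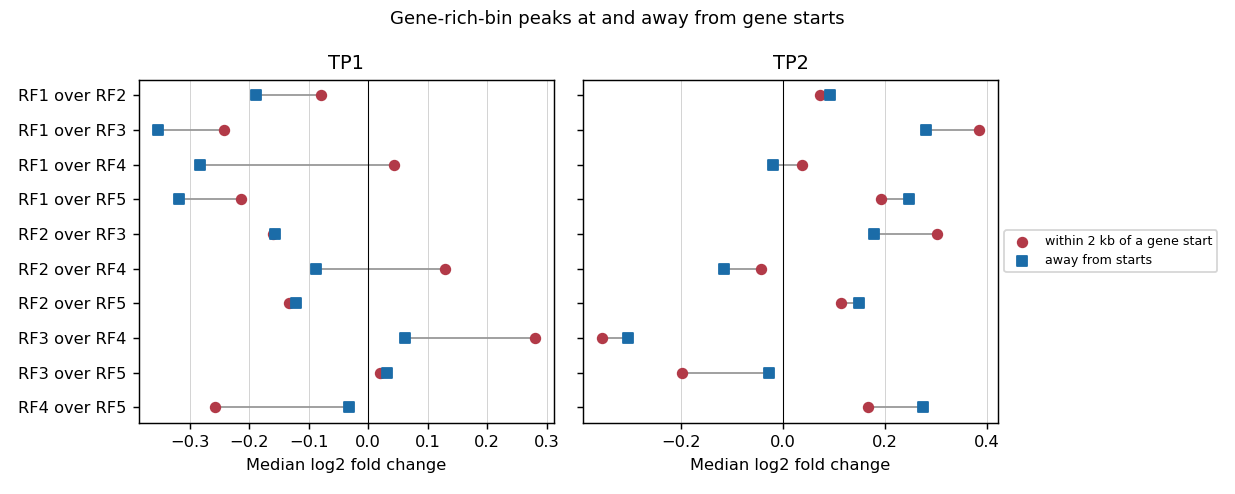
Median log2 fold change (x axis) of peaks in gene-rich bins within 2 kb of a gene start and away from starts, for each pair of RFs (y axis) at TP1 and TP2. The pairs with RF4 differ most between starts and away at TP1, such as RF3 over RF4 with 0.28 at starts and 0.062 away.

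For RF1 over RF3, the direction was shared by most gene-rich bins and, relative to other peaks of the same chromosome, by all autosomes. At TP1, the median of the peaks of a bin for RF1 over RF3 was below that of all autosomal peaks in 208 of 234 bins, with bins from -0.76 to 0.81. At TP2 it was above in 212 bins, with a range from -0.44 to 0.60. The 26 bins above the autosomal median at TP1 held fewer peaks (median 59.5, against 97.5), and 8 of them were among the 18 bins with at least 10 olfactory or vomeronasal receptor genes. For RF3 over RF4, 216 bins were above at TP1 and 212 below at TP2. For RF4 over RF5 at TP1, 215 were below. RF1 over RF4 at TP2 had no common direction, with 116 below and 118 above. By chromosome, the peaks of gene-rich bins had a lower median for RF1 over RF3 than the other peaks of the same chromosome on all 19 autosomes at TP1 and a higher median on all 19 at TP2. Chromosome 7 had the lowest and then the highest median, with medians in its gene-rich bins of -0.54 at TP1 and 0.49 at TP2. Chromosome 13 was at the opposite end of the order, with 0.14 and -0.14. Counts summed over bins gave dependence on RF at FDR below 0.01 in edgeR for 234 of 234 gene-rich bins at TP1 and 232 at TP2, but also for 96.4% and 94.1% of all 2015 bins. For RF1 and RF3 alone, 27 gene-rich bins were higher in RF1 and 159 in RF3 at TP1 (all bins, 59.7% and 26.2%), and 210 and 8 at TP2 (all bins, 35.0% and 43.4%). At TP1, bins higher and lower in RF1 numbered 27 and 148 against RF5 (all bins, 60.3% and 24.9%), 67 and 18 against RF4 (67.3% and 10.3%) and 36 and 19 against RF2 (59.4% and 7.44%), so that against RF2 and RF4 more of the called bins were higher than lower in RF1, unlike the median peak. In these fits the highest of the 5 RFs at TP1 was RF3 in 144 bins, RF5 in 52 and RF1 in 38, and the lowest was RF1 in 120, RF4 in 113 and RF3 in 1. At TP2 it was RF1 in 144, RF4 in 54 and RF5 in 25, and RF3 was lowest in 210.

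The males of TP1 and TP2 were littermates in different libraries, so a pair of RFs could be compared between TPs without shared samples. For RF1 over RF3, the medians of 224 of 234 bins had opposite signs at the TPs, with a Pearson correlation over bins of -0.921. Of the peaks in gene-rich bins, 1472 were DARs between RF1 and RF3 at both TPs, and 1471 of them were in opposite directions. For RF1 and RF5, 222 bins had opposite signs (r = -0.911), and 838 of 856 peaks called at both TPs were opposite. For RF3 and RF4, 205 bins had opposite signs (r = -0.648), and 195 of 197 peaks were opposite. For RF2 and RF4, the result rested on the measure: the medians of peaks had the same sign in 185 bins (r = 0.741), whereas counts summed over bins had the same sign in 78 and opposite signs in 156 (r = 0.802). In the summed counts, 47 bins were higher in RF2 and 1 in RF4 at TP1 (all bins, 30.7% and 1.34%), and 18 and 9 at TP2 (28.1% and 6.7%). All 16 bins called at both TPs and 53 of 53 peaks called at both TPs had the same direction. RF1 and RF4 had 136 bins of the same sign (r = 0.585), RF4 and RF5 had 44 (r = -0.178). The bins share their libraries, so these correlations describe the bins and carry no p-value. The interaction of RF and TP was called for 89.2% of the peaks at gene starts and for 67.4% of those away.

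**Figure D4:**
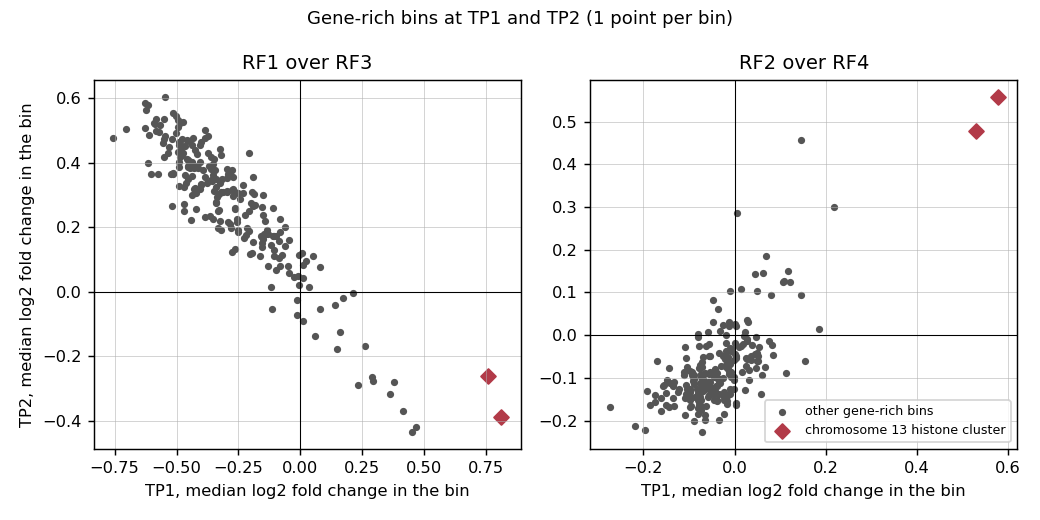
Median log2 fold change of the peaks in each gene-rich bin at TP1 (x axis) and TP2 (y axis), for RF1 over RF3 (left) and RF2 over RF4 (right). Points are bins, and diamonds are the bins at 21 and 23 Mb of chromosome 13 with the histone cluster. For RF1 over RF3, 224 of 234 bins have opposite signs, and for RF2 over RF4, 185 have the same sign by these medians and 78 by summed counts.

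The bin with the most gene starts shows this reversal library by library. At 45 to 46 Mb on chromosome 7 (45000001 to 46000000) it held 66 gene starts and 122 peaks, 56 of them at starts, and its genes include Slc17a7, the clock output factor Dbp and the glutamate receptor subunit gene Grin2d. At TP1, its counts in replicates 1 to 5 were 1604, 2296, 2586, 1957 and 1490 CPM in RF1 and 2456, 2604, 2674, 2652 and 2649 in RF3. The groups overlapped only through replicate 3 of RF1. The other RFs had 2191, 2364, 2136, 2096 and 2124 CPM (RF2), 2052, 2180, 2201, 1880 and 2217 (RF4) and 2319, 2573, 2682, 2659 and 2514 (RF5). RF1 over RF3 was -0.41 ± 0.092 (log2, SE; edgeR FDR = 0.000352). At TP2, RF1 had 2398, 2452, 2269, 2334 and 1752 CPM, and RF3 had 1482, 1474, 1472, 1597 and 1526. Every library of RF1 was above every library of RF3, and the fold change was 0.56 ± 0.063 (edgeR FDR = 1.61e-07). RF2 had 2196, 2176, 2252, 2199 and 1770 CPM, RF4 had 2178, 2275, 2227, 2259 and 2238, and RF5 had 1657, 1684, 1765, 1689 and 1758. Of the 122 peaks, 121 depended on RF at TP1 and 114 at TP2, and all 122 had a negative value for RF1 over RF3 at TP1.

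The peak at Slc17a7, whose promoter is printed above, followed its bin. The peak spans 45163633 to 45164338 on chromosome 7 and covers the start. At TP1 its level in replicates 1 to 5 was 12.9, 18.6, 19.3, 15.3 and 9.64 CPM in RF1 and 18.2, 19.7, 19.3, 21.4 and 16.96 in RF3. RF4 was low as well, with 13.3, 13.1, 14.9, 12 and 16.2. RF2 had 16.7, 17.8, 15.8, 16.7 and 15.7, and RF5 had 17.3, 20.6, 21.6, 22.6 and 19.9. RF4 lay below RF3 and RF5 in every library, while RF1 overlapped RF3. At TP2 the levels were 17.6, 16.9, 15.2, 16.1 and 11.2 CPM in RF1, 9.08, 10.2, 8.91, 12.2 and 9.36 in RF3 and 15.3, 16.7, 14.5, 16.8 and 14.4 in RF4. RF3 was below RF4 in every library and overlapped RF1 only through replicate 5 of RF1. RF1 over RF3 had a log2 fold change of -0.34 ± 0.091 at TP1 (edgeR FDR = 0.00152, below the fold of a DAR) and 0.62 ± 0.092 at TP2 (edgeR FDR = 2.97e-07, a DAR).

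The bin at 69 to 70 Mb of chromosome 11, with 62 gene starts and 118 peaks, holds Per1 with the synaptic genes Nlgn2 and Vamp2. Its RF1 over RF3 fold change was -0.27 at TP1 (edgeR FDR = 0.00582) and 0.51 at TP2. The negative value at TP1 was 0.050 when an offset that depends on abundance was used. The peak at Per1 (69098708 to 69100588) had 35.6, 52.8, 56.1, 42.2 and 37.2 CPM in RF1 and 46.6, 49.99, 50.2, 51.2 and 47.5 in RF3 at TP1, and these ranges overlapped. At TP2, RF1 had 40.6, 40.6, 44.5, 41.3 and 34.3 CPM and RF3 had 25.7, 24.5, 25.3, 25.1 and 26.7. All libraries of RF3 were below all of RF1, with a log2 fold change of 0.65 ± 0.066 (edgeR FDR = 6.63e-12). RF5 had 34.1, 31.6, 36.5, 32.8 and 36.7 CPM at TP2, between RF3 and most libraries of RF1. The other bins with the most gene starts that are not described further, at 35 to 36 Mb of chromosome 17 (61 starts, with H2-D1 and Tnf), 25 to 26 Mb of chromosome 2 (60 starts, with the NMDA receptor gene Grin1) and 30 to 31 Mb of chromosome 7 (55 starts), had log2 values for RF1 over RF3 of -0.38, -0.28 and -0.50 at TP1 and of 0.52, 0.44 and 0.54 at TP2.

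The kallikrein bin had the lowest levels in RF1 relative to RF3 among the bins named here. It lies at 43 to 44 Mb of chromosome 7, with 40 gene starts and 32 peaks. At TP1, its counts were 123.6, 157.7, 185, 149.8 and 119.5 CPM in RF1, 226.5, 231.9, 239.5, 239.7 and 243.9 in RF3 and 227.5, 241.4, 248, 248.8 and 243.5 in RF5. Every library of RF1 was below every library of RF3 and RF5, with log2 fold changes of -0.69 against RF3 (edgeR FDR = 1.68e-07) and -0.72 against RF5 (edgeR FDR = 1.03e-07). At TP2, RF1 had 248.1, 246.5, 207.9, 229.2 and 148.8 CPM, RF3 had 147.1, 147.8, 144.3, 159.2 and 152.4, and RF5 had 141.7, 146.7, 151.7, 149.2 and 155.1. Replicates 1 to 4 of RF1 were above both RFs, and replicate 5 was within their range. The fold changes were 0.52 and 0.53. Kallikreins are secreted serine proteases, and 7 of their genes had 8 peaks within 2 kb of a start. All 8 were DARs higher in RF3 than in RF1 at TP1 (all peaks, 9.5%), with a median of -0.89. At TP2, 3 were DARs higher in RF1 (all peaks, 4.54%), with a median of 0.51. Kallikrein genes are close paralogs, and the authors kept uniquely aligned reads alone. Reads that match several near-identical copies of the Klk1b group may thus be missing.

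The peak at Klk8 (43795548 to 43799059 on chromosome 7) gave -1.14 ± 0.086 at TP1 for RF1 over RF3 (edgeR FDR = 1.16e-15) and 0.56 ± 0.14 at TP2 (edgeR FDR = 0.00150). At TP1, RF1 had 4.35, 5.16, 5.53, 4.17 and 3.42 CPM and RF3 had 9.44, 10.1, 11.04, 9.54 and 9.95, without overlap. At TP2, RF1 had 10.9, 10.7, 7.99, 9.12 and 5.87 CPM and RF3 had 5.45, 6.16, 6.01, 6.68 and 6.06, with replicate 5 of RF1 in the range of RF3. The remaining kallikrein peaks had the same sign at TP1, with Klk1b8 at -1.07, Klk9 at -0.81 and Klk10 at -0.61.

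The histone gene cluster of chromosome 13 went the other way. Its bins at 23 to 24 Mb (53 gene starts, 63 peaks) and 21 to 22 Mb (42 gene starts, 67 peaks) had the largest ranges over the 5 RFs at TP1 of all gene-rich bins, 1.023 and 0.95 on the log2 scale, with RF1 highest and RF4 lowest in both. In the first, RF1 had 1164, 1140, 1056, 1209 and 1393 CPM at TP1 and RF4 had 635.2, 575.6, 540.9, 615.6 and 563.6. RF2 had 836.1, 803, 866.7, 883.2 and 943.1, RF3 had 699.7, 671.2, 676.6, 671.5 and 682.4, and RF5 had 793.7, 785.2, 792.4, 800 and 740.3. The 5 RFs did not overlap, with RF1 above RF2, RF5, RF3 and RF4 in this order. RF1 over RF3 was 0.81 ± 0.053 (edgeR FDR = 1.69e-09). At TP2, RF5 was highest, with 1039, 1001, 987.1, 963.8 and 1010 CPM, and RF4 had 692.6, 679.7, 678.9, 665.4 and 673. RF1 was spread from 641.9 and 626.4 (replicates 1 and 2) over 732.8 (replicate 4) to 943 and 978.5 (replicates 3 and 5). RF2 had 943.1, 928.1, 982.8, 946.2 and 1016, and RF3 had 924.3, 915.9, 936.3, 882.9 and 864.1. RF1 over RF3 was -0.22 at TP2, and the spread of RF1 covered the levels of RF3 and RF4.

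**Figure D5:**
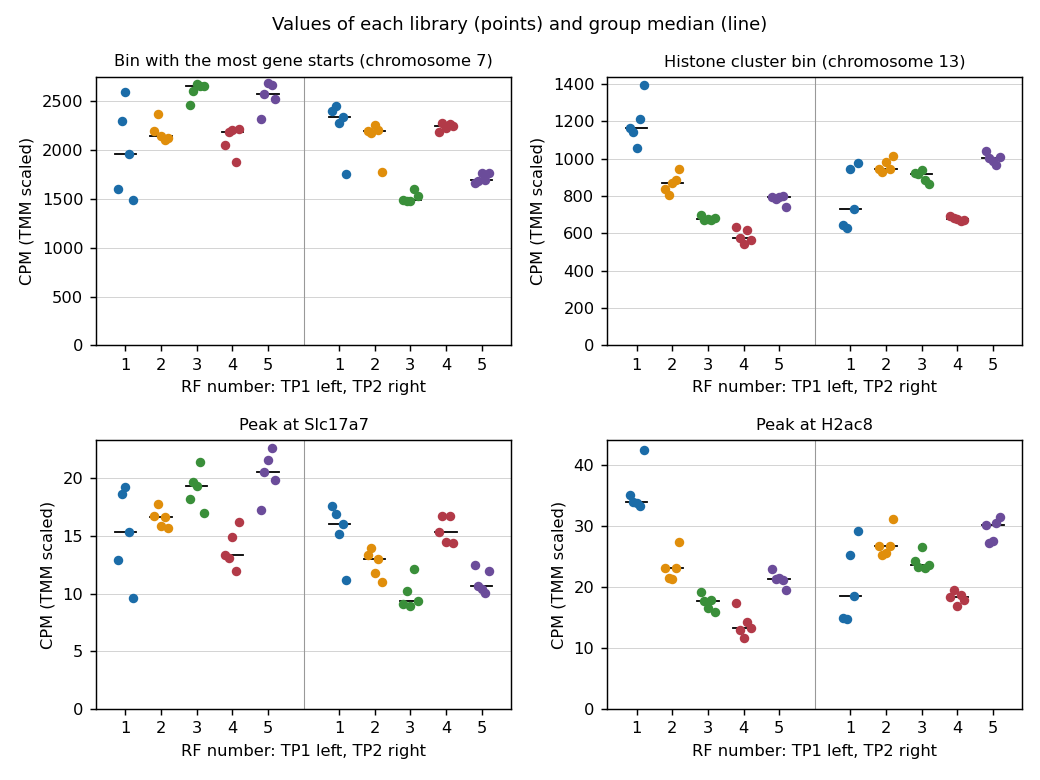
CPM (y axis) per library by RF and TP (x axis) in the bin with the most gene starts, the histone cluster bin at 23 Mb of chromosome 13, and the peaks at Slc17a7 and H2ac8. Points are libraries and lines are group medians. RF1 is the highest RF at TP1 in the histone bin and at H2ac8, where RF4 is lowest.

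Replication-dependent histone genes encode the core and linker histones that cells make in S phase, and neurons no longer divide. On chromosome 13, 27 of these genes had 28 peaks within 2 kb of a start. At TP1, 26 of the 28 were DARs higher in RF1 than in RF3 (median 0.82, from 0.11 to 1.04), 27 were higher in RF1 than in RF4 (median 1.09), 20 were higher in RF1 than in RF5 (median 0.60) and 21 were higher in RF2 than in RF4 (median 0.59). Over all peaks, 10.6%, 11.4%, 12.9% and 1.7% were called in these directions. The peak at H2ac8 (23570378 to 23572153) had 35.1, 33.9, 33.7, 33.2 and 42.4 CPM in RF1, 19.2, 17.7, 16.6, 17.8 and 15.9 in RF3 and 17.4, 12.9, 11.6, 14.2 and 13.3 in RF4. RF1 was above both without overlap, with 1.03 ± 0.071 over RF3 (edgeR FDR = 1.21e-16). The peak at H3c11 (21782412 to 21784102) had 19.3, 17.3, 16.1, 20.3 and 24.2 CPM in RF1 and 10.7, 9.07, 7.97, 9.71 and 9.57 in RF3, with 1.04 ± 0.076 (edgeR FDR = 7.26e-16). H2ac13, H2ac7, H2bc22 and H4c8 gave 1.01, 0.98, 0.97 and 0.85. At TP2, the levels at H2ac8 were 14.9, 14.8, 25.2, 18.4 and 29.2 CPM in RF1, 24.3, 23.3, 26.5, 23.1 and 23.6 in RF3, 18.3, 19.5, 16.9, 18.7 and 17.8 in RF4 and 30.1, 27.2, 27.5, 30.4 and 31.4 in RF5. RF5 was above RF4 without overlap, and RF1 overlapped RF3, RF4 and RF5. Over the 28 peaks, the TP2 median was -0.22 for RF1 over RF3 and 0.50 for RF2 over RF4, for which 11 were DARs higher in RF2 (all peaks, 0.72%). Histone genes are near-identical in their coding parts, so counts of single genes are uncertain where reads that match several copies could have been left out.

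Genes between the histone genes moved with them. In the same bins, 13 of 18 peaks at starts of other genes were DARs higher in RF1 than in RF3 at TP1 (all peaks, 10.6%), with a median of 0.60. So were 58 of 84 peaks away from starts (median 0.82, from -0.42 to 1.72). Among those at starts were Zfp184, a zinc finger gene, with 0.84, and Btn1a1, a butyrophilin gene whose strand was set from counts, with 0.92. At TP2, 18 of the 84 were higher in RF3 than in RF1 (all peaks, 5.59%) and 35 were higher in RF2 than in RF4 (all peaks, 0.72%). The 6 histone peaks on chromosome 3 had a median of 0.24 for RF1 over RF3 at TP1, and 4 of them were DARs higher in RF1 than in RF4 (all peaks, 11.4%). Counting both chromosomes, the list had 34 peaks of 33 genes, of 58 in gene-rich bins.

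Clusters of receptor and adhesion genes had few peaks for many gene starts. The protocadherin bin at 37 to 38 Mb of chromosome 18 had 55 gene starts, 46 peaks and 7 peaks at starts. Its median level from RF1 to RF5 was 557, 513, 516, 446 and 549 CPM at TP1 and 532, 533, 492, 513 and 549 CPM at TP2. RF4 was below every other RF at TP1, with a highest library of 455 CPM against 499 CPM for the lowest library elsewhere, and the range over RFs was 0.32 at TP1 and 0.16 at TP2. RF1 over RF3 was 0.12 at TP1. Olfactory and vomeronasal receptor genes, which are silent in most cells outside the nose, numbered 402 in gene-rich bins, and 19 of them had 20 peaks near a start. Between RF1 and RF3, 3 of these were DARs higher in RF1 and 2 higher in RF3 at TP1 (all peaks, 10.6% and 9.5%). At TP2 there were 2 and 4 (all peaks, 4.54% and 5.59%), among them Olfr1392 with -0.81. The vomeronasal receptor bin at 57 to 58 Mb of chromosome 6 and the ribonuclease bin at 51 to 52 Mb of chromosome 14 had RF1 over RF4 fold changes of 0.61 and 0.66 at TP1, with RF1 highest and RF4 lowest.

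Lists of genes were read beside all 5433 tested peaks at starts in gene-rich bins, of which 89.3% depended on RF at TP1 and 76.1% at TP2. Of these peaks, 1.16% were DARs higher in RF1 and 17.6% higher in RF3 at TP1, and 24.8% and 0.166% at TP2. Among genes of neuronal function, peaks that depended on RF at TP1 and TP2 numbered 24 and 21 of 26 for vesicle release, 13 and 14 of 15 for postsynaptic scaffolds, 9 and 8 of 9 for neuron markers, and 32 and 29 of 37 for potassium channels. For immediate early genes, which neurons induce within minutes of activity, 12 of 12 peaks depended on RF at either TP. Their median for RF1 over RF3 was 0.055 at TP1, above the -0.24 of all peaks at starts in gene-rich bins, and 0.39 at TP2. RF4 was low in this list at TP1: 4 of the 12 were DARs higher in RF3 than in RF4 (median 0.38), 4 were higher in RF1 than in RF4 (median 0.46), and the median for RF4 over RF5 was -0.40. Over all peaks, 1.61% were DARs higher in RF3 than in RF4 and 11.4% higher in RF1 than in RF4. Single peaks gave RF1 over RF3 changes at TP1 and TP2 of 0.14 and 0.39 at Junb, a subunit of AP-1, of 0.095 and 0.37 at Arc, which regulates glutamate receptor trafficking, and of 0.37 and 0.20 at Egr3, with the strand of Arc and Egr3 set from counts. Of these, Junb and Arc at TP2 and Egr3 at TP1 passed an edgeR FDR of 0.01, without the fold of a DAR.

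Genes of vesicle release had 26 peaks, of which 6 were DARs higher in RF3 than in RF1 at TP1 (median -0.23) and 6 were higher in RF1 at TP2 (median 0.40). Stx1a, encoding a plasma membrane SNARE protein, had -0.53 at TP1 and 0.33 at TP2. Syt7, encoding a calcium sensor and with the strand set from counts, had -0.11 and 0.59. For postsynaptic scaffold genes, 6 of 15 peaks were DARs higher in RF1 than in RF3 at TP2 (median 0.45, against -0.21 at TP1), among them Dlg4, which encodes PSD-95, with -0.0066 at TP1 and 0.63 at TP2. Neuron markers had 9 peaks, of which 5 were higher in RF1 than in RF3 at TP2 (median 0.52). At TP1, 3 were higher in RF5 than in RF4 (all peaks, 2.7%), with a median of -0.41 for RF4 over RF5. Neurod2, a transcription factor of excitatory neurons, gave -0.33 and 0.52. Nrgn, encoding the calmodulin-binding protein neurogranin, gave 0.37 at TP1 (edgeR FDR = 1.01e-06) and 0.23 at TP2, and so differed in sign at TP1 from Slc17a7 and Neurod2.

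Circadian clock genes had 11 peaks, of which 4 were DARs higher in RF1 than in RF3 at TP2 (median 0.50). Tef, a clock output factor, had 0.11 at TP1 and 0.47 at TP2, and Ciart, a repressor of the clock, had 0.21 and 0.29. Of 8 peaks at genes that respond to glucocorticoids, 4 were higher in RF1 than in RF3 at TP2 (median 0.48, against -0.16 at TP1). Potassium channel genes had 37 peaks, with 1 higher in RF1 and 9 higher in RF3 at TP1 (median -0.28) and 12 higher in RF1 at TP2 (median 0.40). Kcna3 was the one higher in RF1 at TP1, with 0.68.

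The lists of housekeeping and other large gene families had negative medians for RF1 over RF3 at TP1 and positive medians at TP2. Cytosolic ribosomal protein genes had 31 peaks with a median of -0.15 for RF1 over RF3 at TP1 and 0.42 at TP2, where 7 were DARs higher in RF1, such as Rps19 (0.59) and Rpl27 (0.53). Mitochondrial ribosomal protein genes had 29 peaks with -0.12 and 0.32, and respiratory chain genes 26 peaks with -0.29 and 0.37. Proteasome genes had 19 peaks with -0.30 and 0.33, and Psmc4, a subunit of the regulatory particle, was a DAR at both TPs with -0.64 and 0.65. For genes of RNA polymerase II and general transcription factors, 7 of 26 peaks were DARs higher in RF1 at TP2 (median 0.39). Of 188 peaks at zinc finger (Zfp) genes, 2 were higher in RF1 and 41 in RF3 at TP1 (median -0.25), and 51 were higher in RF1 at TP2 (median 0.40). SLC transporter genes had 106 peaks, with 1 and 24 at TP1 (median -0.30) and 30 and 1 at TP2 (median 0.38). The medians of these lists lay from -0.30 to -0.12 at TP1 and from 0.32 to 0.42 at TP2, around those of all peaks at starts in gene-rich bins, which were -0.24 and 0.38.

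Lists of genes that are mainly active outside neurons were set beside the TP1 median of all peaks at starts in gene-rich bins (-0.24, RF1 over RF3). MHC, keratin, astrocyte, oligodendrocyte and microglial genes had medians below it, and serpin and vascular genes had medians above it. The astrocyte and oligodendrocyte lists had only 2 peaks each. Serpin genes had 10 peaks, of which 2 were DARs higher in RF3 than in RF1 at TP1 (median -0.16) and 1 was higher in RF1 at TP2 (median 0.066). MHC genes had 18 peaks, of which 12 were DARs higher in RF3 than in RF1 at TP1 (median -0.63) and 2 were higher in RF1 at TP2 (median 0.40). H2-K1, a classical class I gene, had -0.86 at TP1 and 0.58 at TP2, and H2-Eb1, a class II gene, had -0.70 and 0.13. MHC genes are close paralogs, and reads that match several of them may be missing. Keratin genes had 29 peaks, of which 11 were higher in RF3 at TP1 (median -0.44) and 1 was higher in RF1 at TP2 (median 0.20). The astrocyte markers Aldoc and Gfap were both DARs at both TPs, with -0.65 and -0.83 at TP1 and 0.75 and 0.94 at TP2. The peak at Aldoc (78321639 to 78323525 on chromosome 11) was highest in RF3 at TP1. RF3 had 14.1, 15.04, 12.9, 14.3 and 14.0 CPM at TP1, and RF1 had 6.53, 10.3, 11.05, 9.10 and 8.49. RF3 was above RF1 in every library, and its lowest library was above the highest of RF2, RF4 and RF5, which was 11.1 CPM. At TP2, RF1 had 10.9, 12.6, 10.6, 11.6 and 7.53 CPM and RF3 had 6.15, 6.26, 6.48, 6.86 and 6.17, again without overlap. The oligodendrocyte markers Sox10 (strand set from counts) and Cnp had -0.51 and -0.40 at TP1 and 0.56 and 0.56 at TP2. Of 3 microglial peaks, 1 was higher in RF3 at TP1, at Aif1 with -0.58, and of 3 vascular peaks, 1 was, at Cldn5 with -0.83, while the vascular list had a median of -0.076. The part of glial nuclei in the differences between RFs was not tested.

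The peaks at gene starts with the largest changes lay near genes of varied function. For RF1 over RF3 at TP1, they were Krt8 with -1.80 (edgeR FDR = 4.88e-09), Syt8 with -1.48 and Mlxipl with -1.39, and H3c11 (1.04), H2ac8 (1.03) and H2ac13 (1.01) were higher in RF1. At TP2, Apoc1 (1.39), Bcam (1.31) and Syt8 (1.21) were higher in RF1, and Olr1 (-0.93) and Olfr1392 (-0.81) were higher in RF3. Apoc1, whose strand was set from counts, and Bcam, both in the bin at 19 to 20 Mb of chromosome 7, had -0.92 and -1.01 at TP1 and so reversed. Between RF4 and RF5 at TP1, Ggt7 (-1.58, edgeR FDR = 5e-14), Exoc3l2 (-1.58) and Mpnd (-1.52) were lower in RF4, and Pyy (0.85), Ttll3 (0.71) and Gstk1 (0.68) were higher. Between RF3 and RF4 at TP1, Hoxb6 (1.74, strand set from counts), Arhgef19 (1.69) and Apoc1 (1.56) were higher in RF3, and Mss51 was lower with -0.69. At TP2, Dnase1 (-1.40), Bcam (-1.21) and Syt8 (-1.20) were lower in RF3 than in RF4, and Slc43a3 (0.93, strand set from counts), Rnase2b (0.89) and Clec2d (0.87) were higher. Arhgef19 was among the 10 peaks with the largest range over RFs at both TPs, with 1.69 at TP1 and 1.71 at TP2. At TP2 the largest range was 1.98 at S100a16, a calcium-binding protein gene, whose difference between RF1 and RF3 alone was 0.99 ± 0.34 (edgeR FDR = 0.0211).

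Promoter sequence separated gene-rich bins little from the rest. RefSeq promoters were matched for 5830 of the 7172 genes in gene-rich bins. Their median GC content was 57.3%, compared with 56.3% for the other autosomal promoters. GGGCGG was present on either strand in 49.7% of them (47.3% of all 16456 promoters), CCAAT in 40.0% (38.9%), TATAAA in 11.9% (13.5%), CACGTG in 8.13% (7.96%) and TGACGTCA in 2.52% (2.42%). Within broad classes of promoter GC content, the medians of peaks at starts differed by region for RF1 over RF3. With all promoters split into 3 classes of rising GC content (limits 57.3% and 65.3%), the TP1 medians were -0.22, -0.22 and -0.19 in gene-rich bins and 0.12, 0.079 and 0.14 elsewhere. At TP2 they were 0.35, 0.40 and 0.43, and 0.061, 0.16 and 0.17 elsewhere. GC content varied within each class and was not read for whole peaks. Its part in the difference between regions was not tested. For the low levels of RF4 at starts at TP1, the size of the difference was ordered by GC content in both regions: RF3 over RF4 had medians of 0.23, 0.32 and 0.37 in gene-rich bins and 0.17, 0.27 and 0.34 elsewhere, and RF4 over RF5 had -0.24, -0.29 and -0.35, and -0.22, -0.30 and -0.35 elsewhere. In gene-rich bins, the 2296 starts with GGGCGG had a median of 0.33 for RF3 over RF4 at TP1, and the 1187 without it had 0.25.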

How the data were processed

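The authors trimmed reads with fastp, aligned them with Bowtie2 to GRCm38, marked duplicates with Picard 1.140 and called broad peaks in each of the 50 libraries with MACS2 2.1.4. Those present in 3 or more of 5 libraries per group were merged over the groups, and the authors counted reads per merged peak with featureCounts. The deposited counts are whole numbers without normalization and were used in every test, and the deposited table of normalized counts held identical values and was left out. Of the deposited peak lists, positions were used, and the MACS2 score, the fold enrichment (a ratio) and the -log10 p- and q-values that the authors' caller wrote were not compared.

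Counts were tested with edgeR 4.0.16 (R 4.3.3; robust quasi-likelihood F-tests, TMM scaling, filterByExpr by group) over all peaks, with RF and replicate number as terms at each TP. Fold changes are log2 of the first RF over the second, adjusted by Benjamini-Hochberg over all peaks, and the interaction was tested over both TPs. Counts summed over bins were tested likewise over 2015 bins. CPM values are counts scaled to a library size of 1000000 with TMM factors. DESeq2 1.42.0, total counts, an abundance-dependent (loess) offset, other bin criteria and left-out libraries were alternatives. Tables and plots used data.table (1.17.8), Python 3.11.15, pandas 2.3.3, numpy 2.4.6 and matplotlib 3.10.9. The scripts were tested on simulated counts.

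Gene starts of the bin criterion are the lower coordinates in the RefSeq gene list of GRCm38.p6, which gives no strand. Peaks were assigned to transcription starts within 2 kb, taken from 16456 RefSeq promoters and, for 4205 other genes, from the end with more counts (right for 1916 of 2442 genes that could be checked). The replicate number was used as a block in place of the sorting batch, in which each RF had 1 sample. No label ties the number to a batch, so this is an assumption. Same-numbered libraries deviated from their group means with a mean correlation of 0.078 at TP1 and 0.00081 at TP2, and 17 and 1 of 50 pairs exceeded 0.1, so the criterion for paired samples, with every pair above 0.1, was not met. Over 16647 peaks with mean counts of 500 to 5000, 20 of 100 pairs of libraries of a group differed by less than sampling noise set at 2 times the binomial variance (7 at TP1, 13 at TP2). Each library was kept as 1 mouse, as labelled, and such libraries were summed to 39 samples in an alternative. The bins, gene lists and named genes were chosen with earlier results of these data known. Named were the bins with the most gene starts and the largest ranges over RFs, and the peaks at starts with the largest ranges, the largest changes per pair and, per gene list, the smallest p at TP1. The 6 promoters printed were picked from these. No p-value was computed for the share of counts or for a gene list.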

Additional observations from a re-analysis of the deposited data

Results flagged for a closer look

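Of 120 groups of 5 libraries checked with Dixon's test, 10 held a library that stood apart, and chance alone gives about 5% of groups. Replicate 5 of RF2 at TP2 had a gene-rich share of 21.7% (nearest library 23.6%), 1770 CPM in the bin at 45 to 46 Mb of chromosome 7 (2176), 146 CPM in the kallikrein bin (199.997), 7.14 CPM at Aldoc (10.995) and 31.2 CPM at H2ac8 (26.8). Replicate 5 of RF1 at TP2 had 1752 CPM in the bin at 45 to 46 Mb of chromosome 7 (2269). Replicate 1 of RF4 at TP2 had a share of 23.9% (24.2%). At TP1, replicate 4 of RF4 had 178 CPM in the kallikrein bin (206), replicate 5 of RF5 had 740 CPM in the histone bin at 23 to 24 Mb of chromosome 13 (785), and replicate 5 of RF1 had 42.4 CPM at H2ac8 (35.1).

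The effect of RF differed between TPs for 15619 peaks of gene-rich bins and for 234 of 234 gene-rich bins (96.9% of all bins). For the items given by library, the FDR of this interaction in edgeR was 3.04e-10 for the bin at 45 to 46 Mb of chromosome 7, 3.48e-11 for the kallikrein bin, 3.79e-11 for the histone bin and 2.57e-09 for the protocadherin bin. At single peaks, the edgeR FDR of the interaction was 2.76e-10 at Slc17a7, 6.54e-16 at Per1, 1.66e-14 at Aldoc, 6.17e-16 at Klk8, 9.69e-13 at H2ac8 and 4.64e-10 at H3c11.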

How the results depend on the processing

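Over all alternatives, 443 recomputed summary values moved by less than the limit set for them. Beyond that limit, 10 were weaker, 6 were stronger and 7 had moved, and 0 were reversed. Counts could not be labelled as reversed. The other summary values were medians less that of all autosomal peaks, in which a change of library scaling largely cancels. The 0 is therefore no test of direction. Without that subtraction, total counts alone changed the sign of the gene-rich medians for RF3 over RF4 and RF4 over RF5 at TP1. The criterion for a bin changed the counts by its construction. With at least 15 gene starts, 25366 peaks depended on RF, 14423 were DARs and 397 bins depended on RF at TP1, with 393 bins at TP2 and 23765 peaks with an interaction. With at least 30, the counts were 7320, 4173 and 97 at TP1, 5539, 3761 and 96 at TP2, and 7339 for the interaction. The median of gene-rich bins less that of all autosomal peaks at TP2 was -0.31 for RF3 over RF4 and 0.24 for RF4 over RF5, and became -0.27 and 0.21 with at least 15 starts and -0.37 and 0.28 with at least 30. With a loess offset, it was 0.057 for RF3 over RF4 at TP1 (0.12 in the report's fit), -0.28 at TP2 and -0.038 for RF3 over RF5 at TP2 (-0.075). The bin at 69 to 70 Mb of chromosome 11 reversed to 0.050 for RF1 over RF3 at TP1 with that offset, and the cause was not tested. With libraries within sampling noise summed, and so fewer samples, 131 bins depended on RF at TP1 and 6396 peaks at TP2. Without replicates 3 and 5 of RF1 and RF2, there were 10070 DARs at TP2.

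Leaving out each replicate number in turn gave 13526 to 16168 dependent peaks at TP1, 7092 (without replicate 2) to 12370 (without replicate 5) at TP2, 7583 to 10585 DARs at TP1, 4592 to 9050 at TP2, 164 to 233 bins at TP1 and 226 to 233 at TP2. Without the replicate block, 15466 peaks depended on RF and 8957 were DARs at TP1. At TP2, 10823 depended on RF and 6641 were DARs. An interaction was called for 15492, and 227 bins at TP1 and 231 at TP2 depended on RF. No label says what the number marks, and deviations of same-numbered libraries correlated at a mean of 0.078 at TP1 and 0.00081 at TP2. DESeq2 gave 16393 dependent peaks and 9139 DARs at TP1. Gene ends in place of gene starts, an alternative chosen after seeing the data, gave 16317 dependent peaks and 9174 DARs at TP1. Of 160 values of single bins and peaks, 98 kept their direction and side of the threshold throughout. Depth limits TP2, where the shallowest library had 5111223 counts.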
